A study of Rattus norvegicus with 72 samples.

Results

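The 12 wild-type hypothalamus DNA libraries of a rat study were compared by the table in which the authors also placed them. The series has 72 libraries, of which 24 are DNA libraries, and asks how loss of Ube3a inherited from the mother differs from loss inherited from the father. The authors deposited a control table with the 12 wild-type libraries alone, and a maternal and a paternal table that each join 6 of these wild-type libraries to 6 deletion libraries. The maternal-table side is JL302, JL401, JL402, JL500, JL501 and JL508, and the paternal-table side is JL306, JL407, JL408, JL504, JL505 and JL510. All 12 are labelled as female, wild-type and hypothalamus, with no treatment and no strain given in the labels, and were made with a kit for whole-genome bisulfite sequencing. None of the 12 carries the deletion by its label, so the sides differ in table membership and not in labelled genotype. The deletion libraries that are cited carry a Ube3a deletion of maternal or paternal origin, per the labels.

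Methylation of cytosine in CpG dinucleotides is a stable mark of vertebrate DNA, and most CpGs outside promoters and CpG islands are methylated in brain. At imprinted genes the mark differs between the copies inherited from mother and father, and neurons transcribe Ube3a chiefly from the copy of the mother. In females the inactive X carries methylation at many CpG islands that are unmethylated on the active X. Mitochondrial DNA is usually read as almost unmethylated by bisulfite sequencing, in which unmethylated cytosine is converted and methylated cytosine is not.

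The parent-of-origin labels of 3 libraries went against the table that holds them. JL401 and JL402 were labelled paternal and stood in the maternal table, and JL306 was labelled maternal and stood in the paternal table. Labelled age also moved with the side: the maternal-table side held 5 libraries of postnatal day 2 and 1 of day 9, and the paternal-table side held 2 of day 2 and 4 of day 9. The leading digits of the library names, the only hint of a batch, were balanced in number, with 1 library a side named JL3, 2 a side named JL4 and 3 a side named JL5. They were not balanced in age. Every JL3 and JL4 library was of day 2 on the maternal-table side and of day 9 on the paternal-table side. Both JL3 libraries were labelled maternal and all JL4 libraries paternal. In JL5 each side held both ages, and the labels went with the tables. The labels assign no library to a litter or an animal, so the tests measure the spread between these libraries.

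The control table listed 16244 regions on the rat genome build rn6, and 16243 had a level in every library. A level is the authors' smoothed methylation level of a region, as a fraction from 0 to 1. Regions held a median of 6 CpGs (5 to 341) and spanned a median of 476 bases (9 to 5272). The median level was 0.764, and 8827 regions (54.3%) were high (mean over 0.75), 6456 (39.8%) middle and 960 (5.91%) low (mean under 0.25). The files give no read coverage, so the depth behind a level is unknown.

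Several libraries stood apart before any comparison of sides. In the 4 mitochondrial regions, JL302 had a mean level of 0.663 and JL306 of 0.502. The JL4 libraries lay at 0.0853, 0.121, 0.184 and 0.134 there, and the 6 JL5 libraries between 0.00822 and 0.0245. The mitochondrial level thus went with the name series and not with the side. In the region chrM:133-2345, with 48 CpGs, JL302 reached 0.977 and JL306 0.944, while the JL5 libraries stayed between 0.009 and 0.029. JL302 and JL306 were also the highest at the low regions of the nuclear and mitochondrial genome together, with medians of 0.172 and 0.201 against 0.107 to 0.137 in the other 10. Of 345 regions with a range over 0.5 between libraries, JL302 was the highest in 89 and JL306 in 91. The maternal table showed the same feature in its JL3 deletion libraries, with mitochondrial means of 0.355 in JL303 and 0.437 in JL305. The cause of these levels was not tested.

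On the X chromosome (229 regions, median level 0.592) another pair stood apart. JL402 had a mean X level of 0.491 and JL505 of 0.529, and the other 10 libraries lay between 0.573 and 0.626. JL402 was the lowest library in 71 X regions and JL505 in 37, and 27 and 14 X regions were under 0.1 in them. At the 159 X regions whose mean in the other 10 libraries was between 0.25 and 0.75, JL402 had a mean of 0.361 and JL505 of 0.404, against 0.494 to 0.557. This pair has 1 library on each side, and the low X level recurred in the other tables, where JL402 had 0.479 against 0.575 to 0.617 and JL505 0.533 against 0.582 to 0.629. JL510 had the lowest mean level over all regions, at 0.672.

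**Figure D1:**
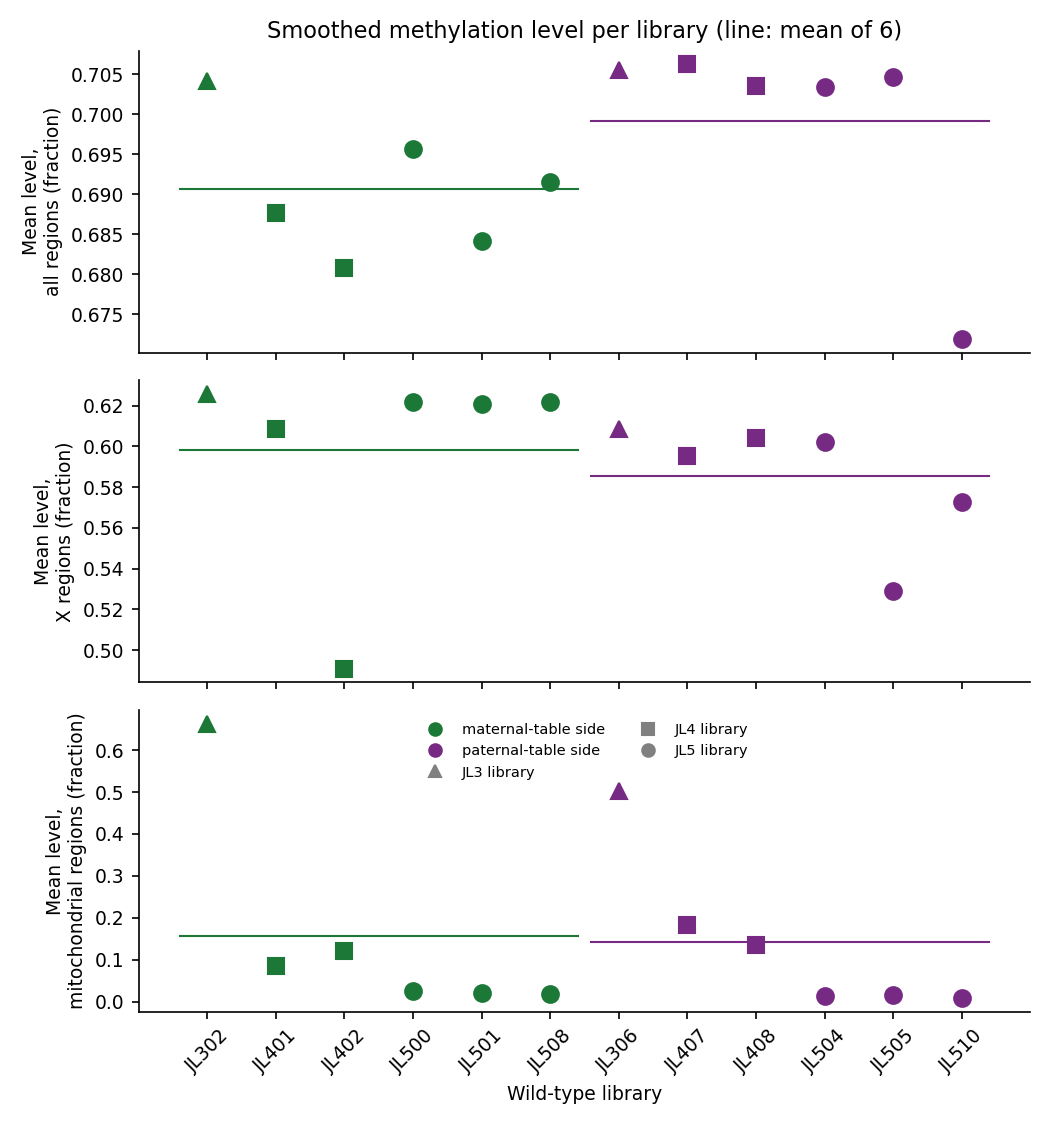
Mean smoothed level (fraction) of each wild-type library over all regions, over X regions and over mitochondrial regions, coloured by side and shaped by name series, with the mean of 6 as a line (vertical axes do not start at 0 in the upper panels). JL510 lies low over all regions, JL402 and JL505 on X, and JL302 and JL306 high in the mitochondrial regions.

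No region passed the test between sides. The mean level of a library was 0.691 ± 0.00841 (SD, n = 6) on the maternal-table side and 0.699 ± 0.0134 (SD, n = 6) on the paternal-table side. The difference of -0.00855 had a two-sided exact permutation p of 0.219, and 0.693 after Benjamini-Hochberg adjustment over 8 exact tests of library values. Exact tests of the other leave-one-out sets, and of the sets without a pair of libraries, were run but are not among these 8. On the paternal-table side 5 libraries lay between 0.703 and 0.706, and JL510 lay at 0.672. Without JL510 the difference was -0.0140 with an exact permutation p of 0.00866 (adjusted 0.0693). That library was singled out from the leave-one-out series for its low value of this same measure. The p-value without it is therefore a description and no test of the sides. Its adjusted value does not count the other leave-one-out tests. Within name series the sides differed by -0.0206 in JL4, -0.00143 in JL3 and -0.00286 in JL5, and by -0.0136 in JL5 without JL510. In JL3 and JL4 these are also differences between the labelled ages. Grouped by parent-of-origin label the difference was 0.00217, of the opposite sign, with an exact permutation p of 0.764.

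Across regions the side difference (maternal-table side minus paternal-table side) was centred near 0, with a median of -0.00952, quartiles of -0.0404 and 0.0233, and extremes of -0.291 and 0.260. The median absolute difference was 0.0326, beside a median SE of the difference of 0.0362 and a median SD within a side of 0.0615. The absolute difference exceeded its SE in 7358 regions (45.3%) and stayed under 0.02 in 5161 (31.8%). A difference over 0.1 was found in 261 regions in the higher and 495 in the lower direction. Of all regions 42.3% were higher on the maternal-table side, which became 49.8% once each library was centred on its own median. Centring moved the median difference by 0.00929 and turned the sign of 1214 regions.

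**Figure D2:**
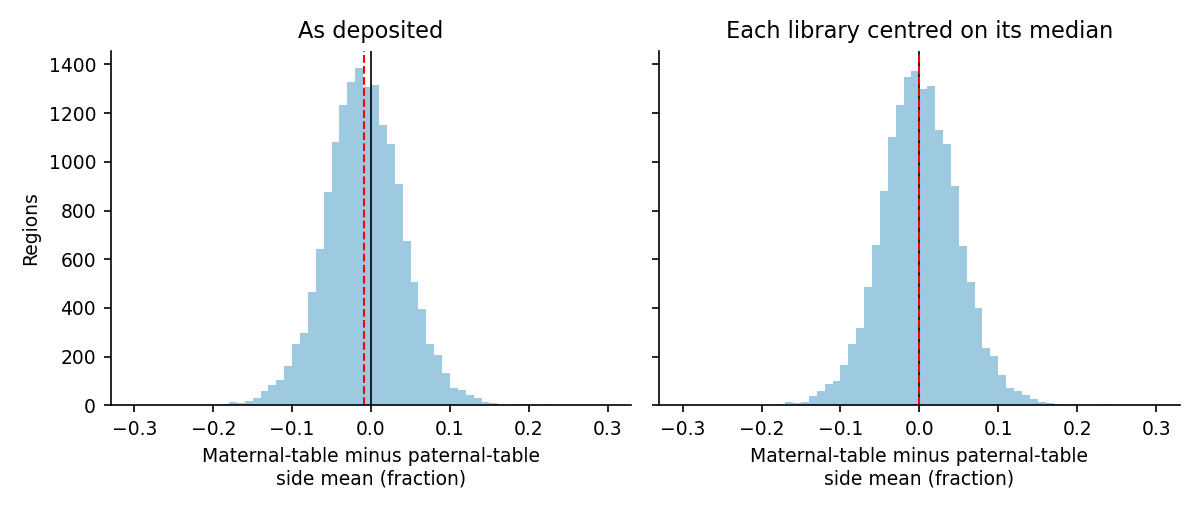
Number of regions by side difference (maternal-table side minus paternal-table side, fraction) in bins of 0.01, as deposited and after each library was centred on its median. The solid line marks 0 and the dashed line the median, -0.00952 as deposited.

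In limma with Benjamini-Hochberg adjustment over 16243 regions, 0 regions were called higher (0.0%) and 0 lower (0.0%) at an adjusted p under 0.05, and the lowest adjusted p was 0.0864. At an unadjusted p under 0.05 the same limma fit held 538 higher (3.31%) and 1050 lower regions (6.46%), 1588 in all (9.78%), where evenly spread p-values would give 812. After centring the split was 962 higher and 679 lower, so 58.6% were higher against 33.9% as deposited, and the direction of that excess depends on the scaling. The unadjusted 95% interval of a region's difference reached a median of 0.0754 to either side. Without JL302 and JL306 limma again called 0 regions (lowest adjusted p = 0.0819, 1584 at an unadjusted p under 0.05), and without JL402 and JL505 also 0 (0.552 and 1343). How the authors chose the regions is not given in the sources used here. If they were chosen on this contrast, these p-values are too small and stand as a description.

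The levels of the 6 libraries of one side lay entirely above those of the other in 99 regions (0.609%), 39 higher (0.24%) and 60 lower (0.369%) on the maternal-table side. After centring the counts were 68 (0.419%) and 37 (0.228%), with 55 regions in the same direction in both, so the balance of directions again turned with the scaling. The higher regions fell into 12 middle and 27 high regions and the lower into 3 low, 24 middle and 33 high. Neither set had a member on X, which holds only 229 of the 16243 regions. At the overall share of 0.609% few would fall there, so this absence is no result about X. The median absolute difference was 0.0917 and 0.0991.

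The region chr9:110943989-110944929 (L1, 8 CpGs, 941 bases) had the lowest adjusted p. JL302, JL401, JL402, JL500, JL501 and JL508 had levels of 0.181, 0.07, 0.14, 0.206, 0.114 and 0.165. JL306, JL407, JL408, JL504, JL505 and JL510 had 0.536, 0.463, 0.453, 0.345, 0.409 and 0.308. The sides did not overlap, and JL306 was the highest library. The means were 0.146 ± 0.0490 and 0.419 ± 0.0832 (SD, n = 6 each), a difference of -0.273 (SE 0.0450, limma adjusted p = 0.0864). The difference was -0.353 within JL4, where labelled age goes with the side, and -0.192 within JL5, where each side holds both ages. By parent-of-origin label it was -0.0722. Of 23 alternatives on the level scale, limma called this region in 3, at adjusted p of 0.0230 with the name series in the fit, 0.0440 without a variance trend and 0.0466 without JL510. In the other 20 it was not called. The adjusted p was 0.201 with labelled age in the fit, 0.342 without the 3 libraries with a contested label, 0.552 without JL402 and JL505, and at most 0.868, by label.

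The region chr8:116127115-116127552 (L2, 5 CpGs, 438 bases) had levels of 0.513, 0.372, 0.495, 0.374, 0.385 and 0.469 on the maternal-table side, in the library order given for L1. The paternal-table side had 0.738, 0.649, 0.708, 0.58, 0.825 and 0.702. Again no library crossed over. The difference was -0.266 (SE 0.0477, limma adjusted p = 0.134).

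In the other direction chr8:27784478-27786652 (H1, 7 CpGs, 2175 bases) had levels of 0.694, 0.804, 0.778, 0.79, 0.727 and 0.751 on the maternal-table side and 0.638, 0.602, 0.491, 0.515, 0.524 and 0.635 on the paternal-table side. The difference was 0.190 (SE 0.0394, limma adjusted p = 0.314). It was 0.245 within JL4, where labelled age goes with the side, and 0.198 within JL5. H1 was the region with the largest difference among the 39 higher regions, and its lowest maternal-table library and highest paternal-table library were both of the JL3 series.

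The short region chr4:158010048-158010078 (H2, 5 CpGs, 31 bases) had nearly the same difference, 0.190 (SE 0.0646), and 1 library raised it. JL302 stood at 0.783, and the other 5 of its side at 0.326 to 0.372, against 0.141 to 0.289 on the paternal-table side. Without JL302 the difference was 0.117. The same coordinates occur in the maternal table, where JL302 had 0.811 but JL401 and JL402 had 0.706 and 0.702 in place of 0.372 and 0.371. A level therefore depended on the table as well as on the library.

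Among the 12 non-overlapping regions with the largest difference in each direction (H1 to H12 and L1 to L12), 6 of the higher were middle and 6 high, and 11 of the lower were middle and 1 high. Their limma adjusted p ran from 0.314 to 0.455 for the higher and from 0.0864 to 0.430 for the lower, so none passed. They hold between 5 and 24 CpGs, the most in chr1:241731624-241732024 (L6). There the sides all but touched, with 0.341 as the highest level of the maternal-table side, in JL402, and 0.341 as the lowest of the paternal-table side, in JL408, at 3 decimals.

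**Figure D3:**
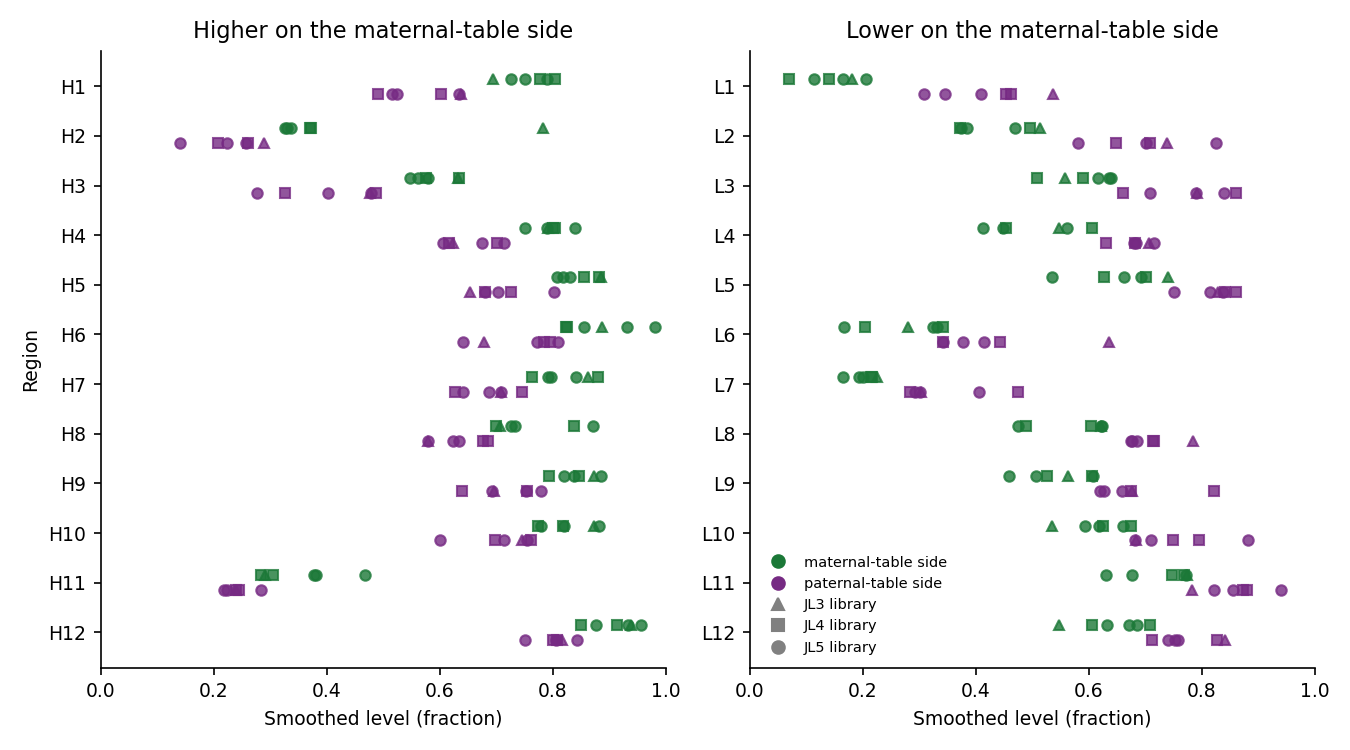
Smoothed level (fraction, horizontal axis) of every wild-type library in the 12 non-overlapping regions with the largest difference in each direction, H1 to H12 and L1 to L12 in order of the difference, coloured by side and shaped by name series. The regions were chosen because the sides do not overlap. JL302 stands alone at 0.783 in H2 and JL306 at 0.636 in L6.

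The largest X difference was at chrX:48779150-48779219 (7 CpGs, 70 bases), with 0.716, 0.659, 0.466, 0.348, 0.599 and 0.47 on the maternal-table side and 0.203, 0.385, 0.105, 0.321, 0.351 and 0.333 on the other. The sides overlapped, since JL500 (0.348) lay below JL407 (0.385) and JL505 (0.351). The difference was 0.260 (SE 0.0630, limma adjusted p = 0.320). Of the 229 X regions 58.1% were higher on the maternal-table side, against 42.1% of the 16010 autosomal regions. The mean X level was 0.598 ± 0.0529 and 0.585 ± 0.0304 (SD, n = 6 each; exact permutation p = 0.595, adjusted 0.764). Without JL402 and JL505, a setting chosen after seeing the data, it was 0.620 ± 0.00649 and 0.597 ± 0.0142 (SD, n = 5 each). X minus autosome means were -0.0937 ± 0.0488 and -0.116 ± 0.0311 with all 12 libraries (SD, n = 6 each, exact permutation p = 0.400, adjusted 0.764). Without JL402 and JL505 they were -0.0739 and -0.103. These libraries were left out on their X levels, so the values without them are a description with no test.

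A pair of alternatives called other regions. Grouped by parent-of-origin label, 1 region was called in limma, chr11:34351283-34351588 (9 CpGs, adjusted p = 0.00363). The 5 libraries labelled maternal had 0.85, 0.609, 0.875, 0.752 and 0.694 (JL302, JL500, JL501, JL508 and JL306). The 7 labelled paternal lay between 0.292 and 0.46, JL401 and JL402 among them at 0.292 and 0.313. By label the groups were apart, whereas by table the sides overlapped, at means of 0.615 and 0.447. The region was picked by the label fit, so this separation is no further support. In an overlapping region of the maternal table, wild-type libraries had 0.457 to 0.805 if labelled maternal, and 0.395 and 0.273 if labelled paternal. The deletion libraries there overlapped by label, at 0.346 to 0.537 and at 0.372 and 0.495. Without JL401, limma called chr10:14942116-14942398 (7 CpGs, adjusted p = 0.0213), where JL401 had 0.628 and the other 5 of its side 0.31 to 0.377, against 0.535 to 0.761 on the paternal-table side. That region had the largest difference of the table, -0.291, and JL401 lay inside the range of the other side.

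The 3 libraries with a contested label were placed by regions that separate the other 9, a description with no test. Of 464 such regions, JL401 was nearer the maternal-table side in 233 and the paternal-table side in 231, JL402 in 267 and 197, and JL306 in 221 and 243. The counts were most uneven for JL402. The 464 include the 99 regions that separate all 12 libraries, in which each library lies with its own table by selection. For each of the 3 libraries the gap between its counts was smaller than 99. The counts therefore do not show which side such a library resembles. When each library was left out in turn, JL402 was nearer its own side in 67.4% of the regions that separated the other 11 (95 of 141), the highest share of the 12. JL510 had the lowest, 41.9% (96 of 229), and the others lay from 52.5% to 65.1%. Each of these sets also includes the 99 regions that separate all 12. The number nearer the own side was 89 to 97 for every library, so the share followed the number of separating regions (141 to 229). The ranking therefore does not show which side a library resembles.

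Within each name series the sides were compared in separate libraries. In JL3 and JL4 labelled age goes wholly with the side and the parent-of-origin label is shared, and only JL5 holds both ages on each side. Agreement between series is therefore no replication of a difference by table. The difference had the same sign in all 3 series in 5468 regions, 2091 higher and 3377 lower (33.7% of regions together). After centring these were 2743 and 2636. Signs also agree in part of the regions where the sides do not differ, and no rate for that was computed, so these counts are a description. Across the 16243 regions the differences correlated at r = 0.10 between JL3 and JL4, 0.079 between JL3 and JL5 and 0.20 between JL4 and JL5, a description over regions that are not independent.

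The level of a library also changed between tables. At 239 regions with the same coordinates in the control and maternal tables, the level of a library differed between the tables by a median of 0.0467 and by up to 0.672. At 226 regions shared with the paternal table the median was 0.0457 and the highest 0.433. Part of this was a common shift, since deviations from the mean of the 6 libraries changed by a median of 0.0304 and 0.0285.

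**Figure D4:**
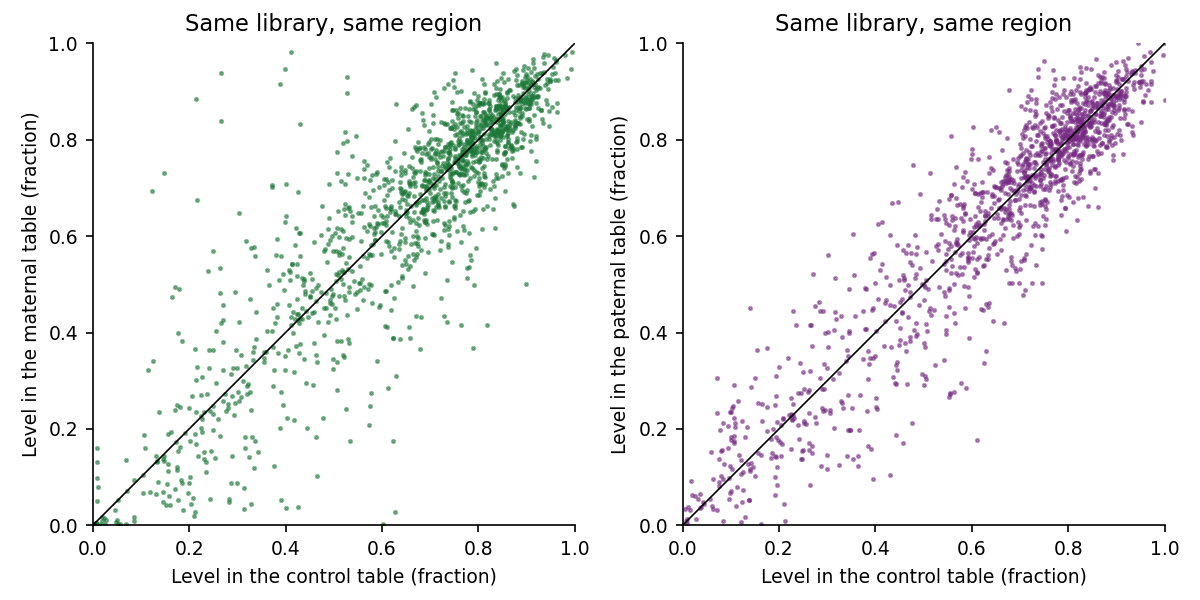
Level of each wild-type library (fraction) in the control table against its level in the maternal or paternal table, at regions with the same coordinates, 1 point a library and region, with the line of equality. The points scatter around the line, with a median absolute difference of 0.0467 in the maternal and 0.0457 in the paternal table.

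Neighbouring regions shared their direction over short gaps. Of 229 pairs up to 1 kb apart, 87.8% had the same sign (r = 0.69), and of 3211 pairs 1 to 10 kb apart 71.6% (r = 0.48). Beyond 10 kb the share was 51.3%, and beyond 100 kb 50.8%. The span of the smoothing is not known here, and neighbouring regions are not independent. The regions without overlap were spread out: of 2070 windows of 1 Mb, 88 held 1 and 5 held more.

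**Figure D5:**
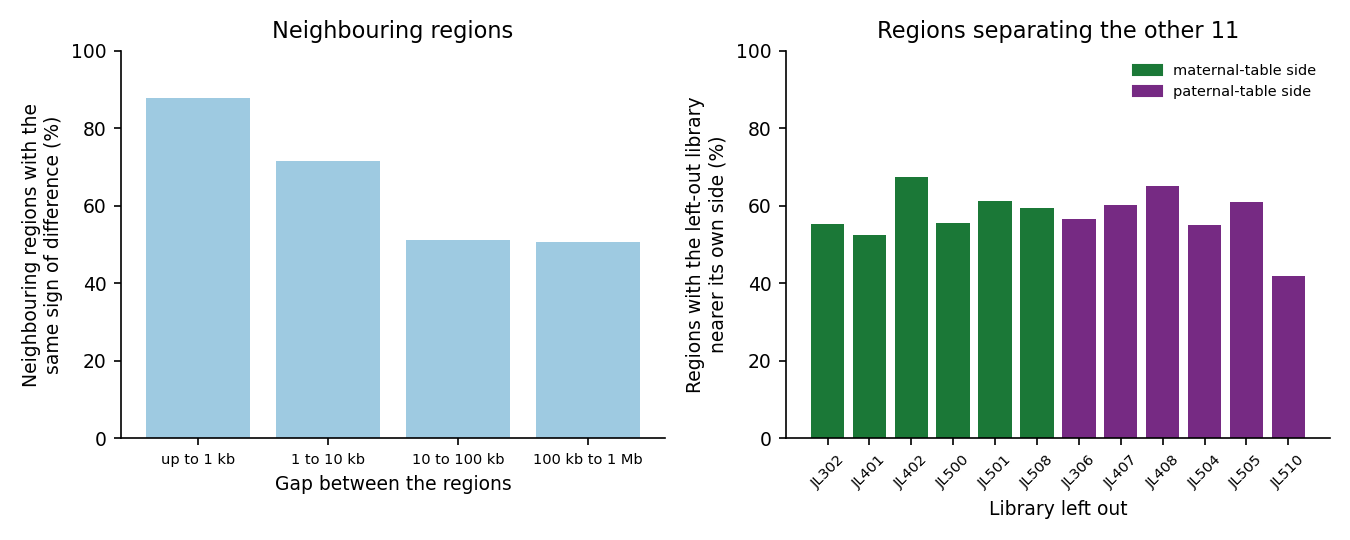
Left, share (%) of neighbouring region pairs with the same sign of side difference by the gap between them. Right, share (%) of regions separating the other 11 libraries in which the left-out library was nearer its own side. The left bars fall from 87.8% to 50.8%, and JL510 is the lowest on the right. Every set on the right includes the 99 regions that separate all 12 libraries, so the bars do not show which side a library resembles.

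The deletion libraries did not enter the control table and gave separate values. Their labels also go against the tables in part: JL403 and JL405 are labelled paternal and stand in the maternal table, and JL310 is labelled maternal and stands in the paternal table. Of the control regions, 3518 (21.7%) overlapped a region of the maternal table and 2884 (17.8%) one of the paternal table by at least 1 base, and 781 overlapped both. At these 781 the difference between maternal-table and paternal-table deletion libraries had the sign of the wild-type difference in 395 (50.6%). Where the wild-type difference exceeded 0.1 it did so in 41 of 65 (63.1%), and with an overlap of at least 50% of the control region in 9 of 17 (52.9%). Labelled age moved with the table among the deletion libraries too. Of the maternal-table ones only JL509 was of the later age, and of the paternal-table ones only JL506 and JL507 of the earlier. A shared sign therefore cannot be assigned to table or to age. Levels of different tables may have been smoothed separately, and genotype differs as well, so these counts are a description.

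A pair of neighbouring regions with many CpGs on chromosome 1 varied widely between libraries of both sides. In chr1:11904450-11907451 (341 CpGs) levels were 0.555, 0.353, 0.264, 0.212, 0.239 and 0.455 on the maternal-table side and 0.856, 0.381, 0.495, 0.429, 0.12 and 0.237 on the other. The nearby chr1:11910007-11911863 (278 CpGs) had 0.548, 0.445, 0.166, 0.158, 0.186 and 0.621, and 0.861, 0.291, 0.518, 0.6, 0.068 and 0.279. In both, JL306 was the highest and JL505 the lowest library, and both lie on the paternal-table side. The side differences, -0.0731 (SE 0.0900) and -0.0823 (SE 0.107), were within their error. The maternal table holds overlapping regions there, in which its 12 libraries ran from 0.199 to 0.84 and from 0.158 to 0.842. Not every region with many CpGs varied as much: chr9:7466258-7467158 (71 CpGs) had a range of 0.263 over the libraries.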

How the data were processed

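The deposited control, maternal and paternal tables hold, per the file headers, 1 smoothed methylation level (a fraction from 0 to 1) per region and library, with coordinates, width and number of CpGs (L). The authors' region statistics were not used. For the genome build, the submitters' processing notes list rn6 together with Rnor_6.0. Not given in the sources used here are the bisulfite aligner, the smoothing tool, the region caller and the choice of regions. Columns were matched to libraries by name, and 0 per-sample columns were left unmapped.

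Levels were fitted in R 4.3.3 with limma 3.58.1 (moderated with eBayes and a variance trend, two-sided, Benjamini-Hochberg over 16243 regions, called at an adjusted p under 0.05), after the code was tested on simulated data. Library means were compared by exact permutation tests, with 924 permutations for 6 against 6 and fewer where libraries were left out or grouped by label. Other values were computed in Python 3.11.15. There were 25 alternative fits, 3 of them added after seeing the data.

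Members and lists were chosen with earlier results of these data known. The rule for named regions took the 12 called regions without overlap between sides and with the largest difference in each direction, called regions with the most CpGs, windows of 1 Mb with the most called regions, and the largest X difference. As 0 were called, the condition of a call was dropped after the values were seen, and only the X region follows the rule as written. The mitochondrial regions, those of the label and leave-one-out fits and those with the most CpGs were also chosen after their values were seen. No annotation of the files' build was used, so regions carry no gene names and gene lists were not used. RNA tables were not analysed here.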

Additional observations from a re-analysis of the deposited data

Results flagged for a closer look

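In 58 groups of 6 libraries (4 library means and 25 named regions on each side), 9 had a library whose gap to its nearest neighbour, divided by the range, was above Dixon's 95% value of 0.625. Chance flags about 1 in 20 groups that are independent and not chosen on their values. The 25 named regions were chosen on these levels and the library means are related, so the 9 cannot be read against that rate. JL510 lay apart on the paternal-table side with a mean level of 0.6719 and a median level of 0.7308. JL402 lay apart on the maternal-table side with an X mean of 0.491. In the mitochondrial regions JL302 lay apart on the maternal-table side at 0.6634 and JL306 on the paternal-table side at 0.5022. In single regions JL302 lay apart at 0.783 in H2 (chr4:158010048-158010078), JL306 at 0.636 in L6 (chr1:241731624-241732024) and at 0.784 in L8 (chr14:34363152-34363293), and JL407 at 0.821 in L9 (chr5:152613057-152614665). Of these 9 values 5 belong to JL302 or JL306.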

How the results depend on the processing

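The count of regions called higher was 0 in limma and rose to 1 in the fit by parent-of-origin label. The count called lower was 0 and rose to 1 with the name series in the fit and to 1 without a variance trend, and ran from 0 to 1 over the 12 fits that each left out a library, with 1 without JL401 and 1 without JL510. The lowest limma adjusted p ranged from 0.00363 to 0.552 over the 25 alternatives, and the number at an unadjusted p under 0.05 from 1380 to 1793 when a library was left out. The difference in library mean level was 0.00217 by label, and from -0.0140 to -0.00658 when a library was left out. Its unadjusted exact permutation p was under 0.05 only without JL510. That library has the lowest mean level, so this p is a description. Regions overlapping both other tables fell from 781 to 262 when at least 50% of the control region had to be covered. Of the 16243 regions, 39 higher and 60 lower had no overlap between sides with all 12 libraries. These numbered 77 and 202 without JL302 and JL306, 110 and 124 without JL402 and JL505, and 50 and 179 without JL510. Without the 3 libraries with a contested label they numbered 202 and 262. All are small parts of the 16243, and fewer libraries a side make separation easier. Of 577 differences of the 25 named regions under alternatives 23 moved by more than the SD within a side, most of them by label. As 24 of the 25 were chosen for sides that do not overlap, their direction is fixed in any subset of the libraries. No paired analysis was possible because the labels carry no replicate numbers, and the name series, used as a covariate, pairs no single libraries. Read coverage is unknown, so depth limits cannot be given.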
